A study of Homo sapiens with 23 samples.

Results

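The genes described here were those whose nascent transcription sat below the vehicle level at each of 5 times after depletion of TRPS1 in T47D cells. Of 60605 genes in the table, 14148 had a mean raw count of 100 or more over the 23 libraries. For each of these the mean normalised count of a dTAG group was divided by the DMSO mean, and the 60 genes with the lowest maximum of the 5 log2 ratios were taken. LINC02925, LINC01138 and KCNK5 were then left out by their symbols, which left 57 members. The ratios to DMSO chose the members, so they are given below as a description and support nothing, and the comparisons among the dTAG times, which leave DMSO out, were tested. Those tests are not independent of the choice either: the rule used all 5 dTAG means, and a gene that came back to its DMSO level at any time could not be a member.

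T47D cells are luminal breast cancer cells that carry the estrogen receptor. In precision run-on sequencing (PRO-seq), permeabilised cells let engaged RNA polymerases extend their transcripts by labelled nucleotides. Counts over a gene therefore follow engaged polymerases, moving or paused, and not stored mRNA. TRPS1 is an atypical GATA-family zinc finger protein known mainly as a repressor, and luminal cells also rely on GATA3, FOXA1, the estrogen receptor and grainyhead factors for their identity.

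All libraries came from 1 clone, T47D dTAG-TRPS1 Clone 28, in which a degron tag sits at the endogenous TRPS1 gene. Control cells received 0.1% v/v DMSO for 24 h, and treated cells received dTAG-13 and dTAG-V-1 at 50 nM each in DMSO for 0.5, 1, 2, 4 or 24 h (called dTAG). There were 4 libraries per group except at 24 h, where replicates 2, 3 and 4 were measured. Replicates were separate dishes handled at different hours of a single day, so the spread between them does not cover other clones or other days.

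Normalised counts (CPM) are counts divided by the library's total, scaled by edgeR's TMM factor, and multiplied by 1e+06, and a log2 ratio is that of a dTAG group mean to the DMSO mean. The libraries held between 4408544 and 17571616 counts (median 9768427), and mitochondrial genes took 1.73% to 6.5% of them. Luminal markers were all present (GATA3 at 30.6 to 37.3 and KRT19 at 57.8 to 77.1 CPM per kilobase of gene span), whereas KRT5, KRT14, CD3E and CDH5 had 0 counts in at least 1 library and never more than 17. In bulk libraries, fewer transcribing cells and fewer polymerases per cell cannot be told apart. The degron acts on the protein, so TRPS1 counts do not check its loss. The TRPS1 gene itself stood at 9171 ± 892 CPM in DMSO (SD, n = 4) and at 11120 ± 1195 CPM after 24 h of dTAG (SD, n = 3).

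RBBP8NL, named as a marker of the list, was a member. GRIK4, a kainate receptor subunit named as the other marker, was not. Its DMSO libraries stood at 317, 318, 310 and 299 CPM and its 0.5 h libraries at 312, 321, 332 and 337 CPM, a ratio of 0.06. The 4 libraries at 4 h lay between 231 and 243 CPM, a ratio of -0.40, so that GRIK4 stood at its DMSO level up to 1 h (ratio -0.01) and ranked 6260 of 14148. The edge of the list was shallow. The members just inside it were SF1-DT at -0.15, OPTN at -0.1507, GATA2 at -0.1508, CPNE4 at -0.1512 and ENSG00000285650 at -0.1521. The genes just outside were ZNF169 at -0.1499, OLFM1 at -0.1485, MEX3A at -0.1478, and RHOV and OSBPL3, both at -0.1475.

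Start-site sequence was available for 32 of the 57 members, in 38 windows running from 250 bases before to 50 after a RefSeq transcript start (GRCh38.p14). The windows of 6 members described below are shown so that their base composition and the few matches can be seen. Capitals mark AGGTCA, the estrogen receptor half-site, or TGATAG, one of the GATA letter strings searched, and a window without capitals held none of the searched letters.
GRHL1 (chr2:9951443-9951742, plus strand): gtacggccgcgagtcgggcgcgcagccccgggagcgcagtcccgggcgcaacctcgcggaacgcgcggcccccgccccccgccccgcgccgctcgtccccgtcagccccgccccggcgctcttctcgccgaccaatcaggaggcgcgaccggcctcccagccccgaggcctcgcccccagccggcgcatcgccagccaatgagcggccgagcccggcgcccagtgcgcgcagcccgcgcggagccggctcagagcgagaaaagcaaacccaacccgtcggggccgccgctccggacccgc
YEATS2-AS1 (chr3:183810402-183810701, minus strand): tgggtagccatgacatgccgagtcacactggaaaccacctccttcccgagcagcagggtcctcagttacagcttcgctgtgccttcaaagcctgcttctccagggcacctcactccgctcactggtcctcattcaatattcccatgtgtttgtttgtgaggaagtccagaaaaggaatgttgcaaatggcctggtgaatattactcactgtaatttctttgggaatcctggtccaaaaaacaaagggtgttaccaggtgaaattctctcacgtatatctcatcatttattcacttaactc
DEGS2 (chr14:100159596-100159895, minus strand): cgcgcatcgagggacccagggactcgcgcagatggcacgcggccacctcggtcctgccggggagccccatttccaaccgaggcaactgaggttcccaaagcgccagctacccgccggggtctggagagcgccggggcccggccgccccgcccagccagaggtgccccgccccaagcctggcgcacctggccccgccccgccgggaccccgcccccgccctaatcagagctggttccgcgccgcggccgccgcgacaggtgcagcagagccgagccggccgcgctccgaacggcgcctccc
GATA2 (chr3:128493152-128493451, minus strand): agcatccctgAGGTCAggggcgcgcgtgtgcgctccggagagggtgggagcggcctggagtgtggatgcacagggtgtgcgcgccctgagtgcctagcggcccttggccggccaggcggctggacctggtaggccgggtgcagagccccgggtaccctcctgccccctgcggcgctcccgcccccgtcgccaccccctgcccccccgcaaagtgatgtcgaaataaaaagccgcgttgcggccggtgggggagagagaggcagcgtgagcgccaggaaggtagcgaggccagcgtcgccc
CXCL12 (chr10:44385048-44385347, minus strand): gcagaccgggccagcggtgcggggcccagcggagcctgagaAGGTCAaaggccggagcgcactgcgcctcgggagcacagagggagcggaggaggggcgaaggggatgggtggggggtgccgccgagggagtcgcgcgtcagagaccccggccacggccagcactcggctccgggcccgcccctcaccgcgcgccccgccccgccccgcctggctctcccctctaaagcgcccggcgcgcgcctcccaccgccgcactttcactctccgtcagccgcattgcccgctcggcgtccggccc
PAX9 (chr14:36661610-36661909, plus strand): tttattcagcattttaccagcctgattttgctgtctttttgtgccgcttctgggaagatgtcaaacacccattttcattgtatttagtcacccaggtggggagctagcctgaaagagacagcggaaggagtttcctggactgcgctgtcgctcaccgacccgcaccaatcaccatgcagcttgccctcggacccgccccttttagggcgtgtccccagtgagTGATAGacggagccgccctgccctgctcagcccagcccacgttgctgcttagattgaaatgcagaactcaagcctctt
The windows of GRHL1, YEATS2-AS1 and DEGS2 held none of the searched letters. GATA2 and CXCL12 each held 1 half-site, at positions -240 and -209 from the start, and the second PAX9 window held TGATAG at position -28. RBBP8NL, KRT15, CACNA1H and SLC47A1 were among the 25 members without a window. The GATA strings were searched on both strands. AGATAA was present in 5.26% of the 38 member windows and 10.3% of all 35116 windows in the table. TGATAA was present in 5.26% and 7.53% of them. AGATAG was present in 0 member windows and 6.63% of all windows, and TGATAG, shown above, in 2.63% and 5.8%. At least 1 of the strings was present in 3 of 38 member windows (7.89%, of CPNE4 and PAX9) and in 25% of all windows. The half-site was present in 7.89% of member windows and 13.8% of all windows, and the full estrogen response element in 0 of 38 and in 0.057%. Beside these shares, G and C made up a median of 69.2% of a member window and 58.7% of any window, and the part of base composition in the shares was not tested.

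The members fell into 2 kinds by their DMSO libraries. In 15 of them the highest DMSO library stood at 1.5 times or more the median of the other 3, compared with 2.45% of the 14148 genes, and these 15 held all 8 of the lowest ranks. In 4 of the 15 (IL1RAPL2, TMEM268, ST8SIA1 and ENSG00000286851) a second DMSO library was also at 1.5 times or more the median of the rest. The other 42 had a highest DMSO library of 1.02 to 1.39 times the rest. When each DMSO library was left out in turn, the largest ratio of all 42 remained below 0, whereas 10 of the 15 reached 0 or more without 1 of them. The closest of the 42 to 0 were SLC16A6 at -0.019 and RNF223 at -0.034. Of the 14148 genes, 806 stayed below 0 in the same way. The 2 kinds were set apart by the same DMSO libraries, so nothing is read from the difference between them.

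**Figure D1:**
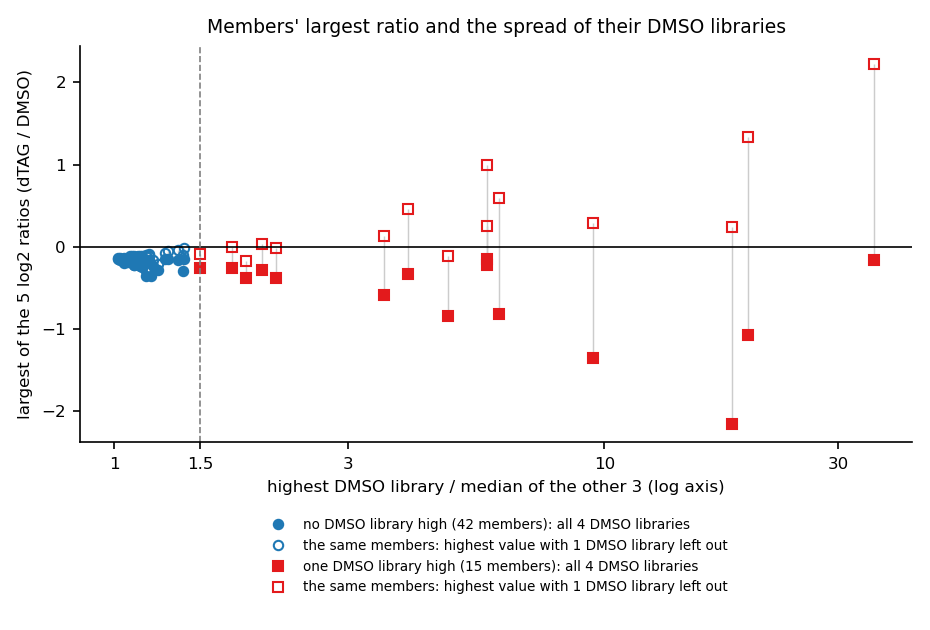
Largest of the 5 log2 ratios of each member (vertical axis, dTAG over DMSO) against its highest DMSO library divided by the median of the other 3 (horizontal axis, log scale). Filled symbols use all 4 DMSO libraries, open symbols are the highest value with 1 DMSO library left out; 42 members (circles) stay below 0 and 10 of the 15 squares reach 0 or more.

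KIFC3, a minus-end directed kinesin, had the lowest rank. In DMSO its libraries stood at 402, 23.1, 21.7 and 22.1 CPM, and its 19 dTAG libraries between 18.2 and 41.9 CPM. The ratios ran from -2.60 to -2.16, but 3 of the 4 DMSO libraries lay inside the range of the dTAG libraries, and without DMSO replicate 1 the largest ratio was 0.24. CKAP5, a microtubule polymerase of the spindle, showed the same pattern in another library. The 4 DMSO libraries stood at 273, 943, 255 and 265 CPM, its dTAG libraries at 229 to 365 CPM, and its largest ratio moved from -0.59 to 0.13 without DMSO replicate 2. The collagen secretion factor TMEM131 had DMSO libraries at 267, 115, 129 and 125 CPM and dTAG libraries at 105 to 128 CPM. In these 3 genes the difference from DMSO rested on a single library.

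ENSG00000247970, a long noncoding RNA gene on chromosome 14, had DMSO libraries at 35.7, 508, 21.5 and 25.9 CPM, and its 2 h replicate 4 also stood high at 183 CPM. ENSG00000231918 had DMSO libraries at 131, 15.5, 13.8 and 12 CPM and a largest ratio of -1.35. ZIM3, a KRAB zinc finger gene, varied in every group and had DMSO libraries at 41.6, 34, 5.08 and 207 CPM. IL1RAPL2, an interleukin receptor family gene expressed in brain, had DMSO libraries at 70.6, 30, 13.3 and 14.7 CPM. TMEM268 had 2 raised DMSO libraries, at 77, 77.5, 144 and 117 CPM, and its largest ratio was still -0.18 when any 1 was left out. The other 7 were the deubiquitinase gene USP47 (largest ratio -0.33), the lipid kinase gene PIK3C2G (-0.28), ENSG00000225173 (-0.26), the matrix gene SNED1 (-0.26), the ganglioside synthase gene ST8SIA1 (-0.22), ENSG00000286851 (-0.16) and the copine gene CPNE4 (-0.15). The raised library was DMSO replicate 1 in 7 members, replicate 4 in 4, replicate 2 in 3 and replicate 3 in 1. Single raised values were not particular to DMSO: 301, 198, 6 and 52 of the 14148 genes stood at 1.5 times or more their own median in DMSO replicates 1 to 4, and up to 612 did so in a dTAG library (4 h replicate 1, the library with the lowest total). What raised them was not tested.

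**Figure D2:**
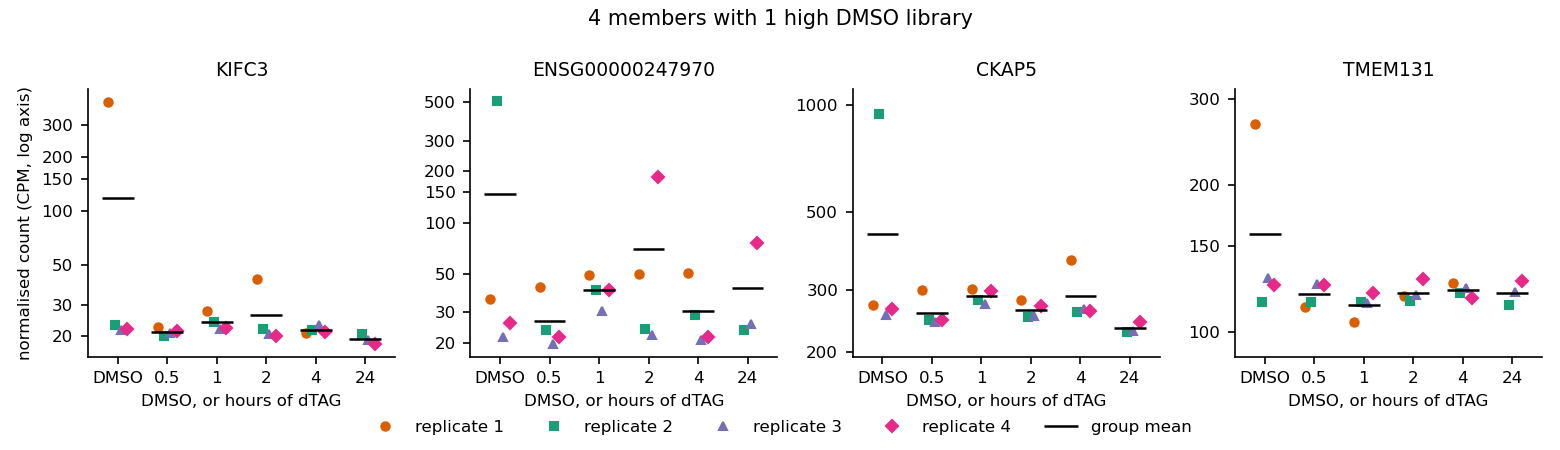
Normalised counts (CPM, log axis) of KIFC3, ENSG00000247970, CKAP5 and TMEM131 in every library, by group, with symbols for replicate numbers and bars for group means. One DMSO point lies far above the other 3 in each panel, and those 3 sit at the level of the dTAG points.

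Among the 42 members with no raised DMSO library the differences were small at all 5 times. Their median log2 ratios in time order, from 0.5 to 24 h, were -0.23, -0.31, -0.28, -0.24 and -0.21, so the median member kept between 80.7% and 86.3% of its DMSO level. Over all 57 members the medians were -0.28, -0.33, -0.31, -0.29 and -0.26, and over all 14148 genes they lay between -0.003 and 0.011. The DMSO mean includes replicate 1, which the 24 h group lacks. Against DMSO replicates 2 to 4 alone, an alternative chosen after seeing the data, the 24 h median of the 57 members was -0.22. The lowest of the 5 ratios fell at 1 h in 22 of the 42, at 24 h and at 2 h in 6 each, at 4 h in 5 and at 0.5 h in 3. The 5 ratios of a gene share the 4 DMSO libraries, so they are not independent of each other.

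**Figure D3:**
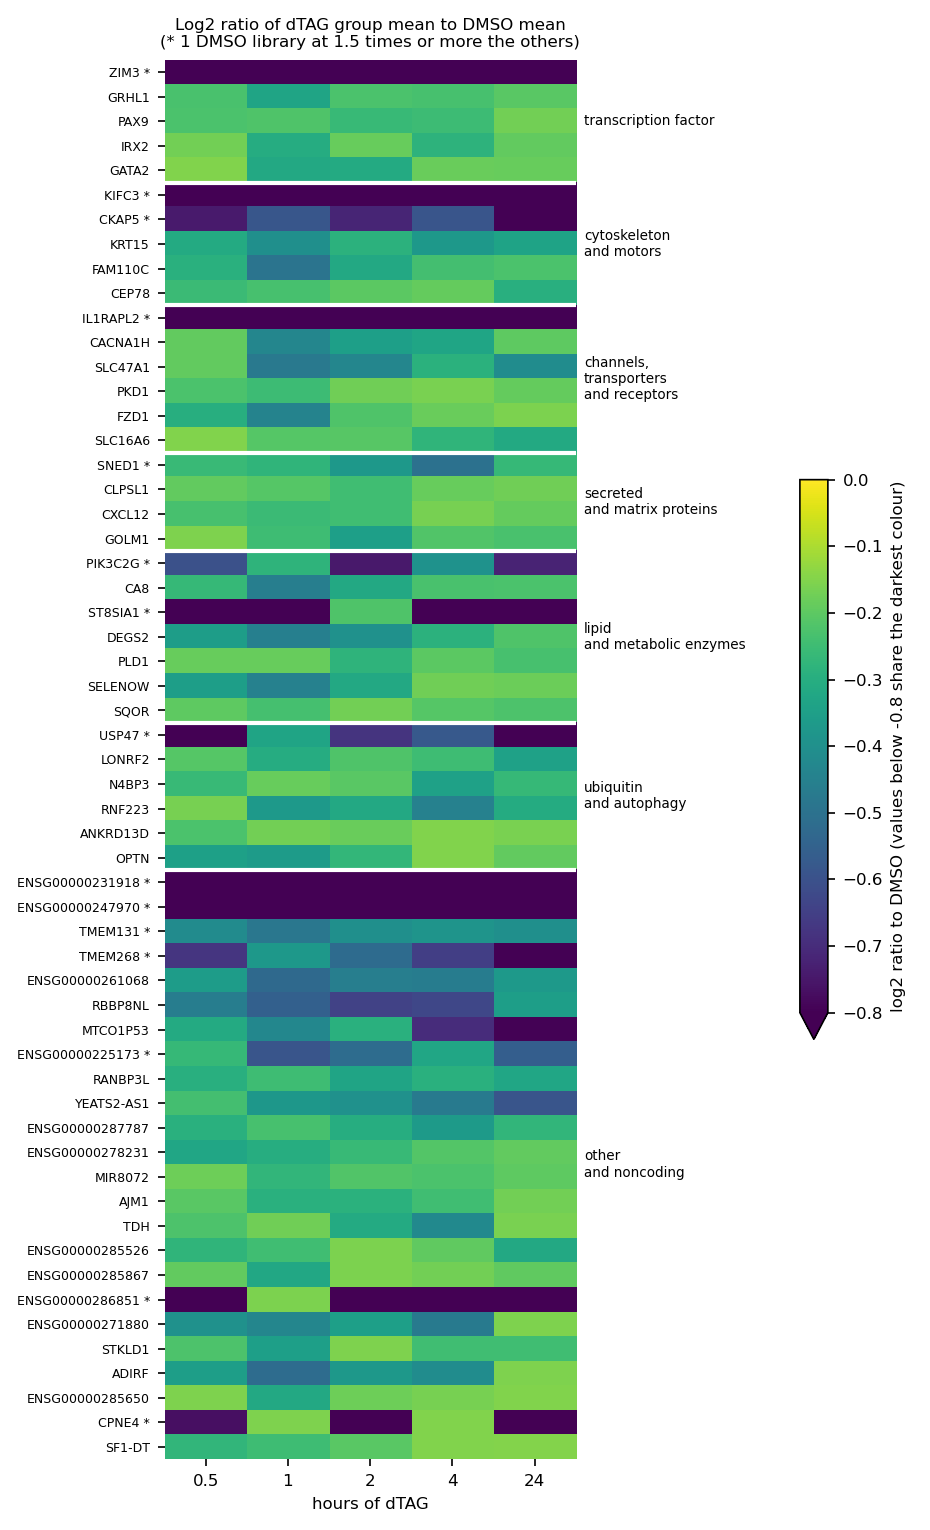
Log2 ratio of each dTAG group mean to the DMSO mean (colour) for the 57 members (rows, grouped by role) at the 5 times (columns). Asterisks mark the 15 members with a raised DMSO library; most other rows run from -0.15 to -0.6 without a change of sign, which the rule for members requires.

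In 6 members every one of the 19 dTAG libraries lay below every DMSO library, which held for 0.113% of the 14148 genes (16 genes). They were RBBP8NL, YEATS2-AS1, GRHL1, CACNA1H, ENSG00000261068 and ENSG00000271880, the last by less than the rounding of its values. Taken time by time, all libraries of the dTAG group lay below all DMSO libraries in 15, 25, 21, 18 and 19 members from 0.5 to 24 h, and in 3.39%, 4.04%, 2.78%, 2.29% and 4.5% of the 14148 genes. The rule used the same libraries, so nothing is read from these shares. In 20 of the 57 members each dTAG library lay below the DMSO library of the same replicate number in all 19 such pairs, and in the other members in 9 to 18 pairs. This count was not made over all 14148 genes, and the rule used the same libraries, so nothing is read from it either.

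RBBP8NL (chr20:62410237-62427539, minus strand, hg38), a gene named for its likeness to the amino-terminal part of the DNA-end resection factor RBBP8, had the lowest largest ratio among named members without a raised DMSO library. Its DMSO libraries stood at 19.8, 23.1, 17.6 and 21.6 CPM. At 0.5 h they stood at 12.9, 15.5, 16.2 and 15 CPM, and at 2 h at 12.8, 12.9, 15.3 and 11.6 CPM. The lowest DMSO library was above the highest dTAG library, which was 16.4 CPM at 1 h. The 24 h libraries, at 16, 16 and 16.2 CPM, lay closest to DMSO. The ratios were -0.46, -0.56, -0.64, -0.63 and -0.35 from 0.5 to 24 h. RBBP8, the resection factor itself, is not a member and had ratios of 0.32 to 0.41.

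The transcription factor genes in the list were GRHL1, GATA2, PAX9 and IRX2, beside ZIM3. GRHL1 (chr2:9951693-10002277, plus strand) encodes a grainyhead factor of epithelia. In DMSO its libraries stood at 39.9, 36.8, 36.4 and 34.7 CPM, and its 0.5 h libraries at 32.3, 31.5, 31.3 and 30.9 CPM. At 24 h they were 33.2, 29.4 and 33.6 CPM, and the ratios were -0.23, -0.33, -0.23, -0.23 and -0.21. GRHL2, its better known relative in breast epithelium, was not a member and had ratios of -0.17 to -0.06. GATA2 (chr3:128479427-128493201, minus strand) encodes a GATA factor best known from blood progenitors. Its DMSO libraries spread from 20.1 to 30.2 CPM (30.2, 26.8, 20.1 and 23.4) and its 1 h libraries stood at 23.4, 19.8, 18.1 and 19.4 CPM. The groups overlapped, and its largest ratio moved from -0.15 to -0.05 when DMSO replicate 1 was left out. PAX9, a paired box factor of foregut and tooth development, had DMSO libraries at 18.1, 19.1, 22.6 and 19.6 CPM and ratios of -0.26 to -0.17. IRX2, an Iroquois homeobox factor, had DMSO libraries at 20.1, 20, 18 and 21.7 CPM and ratios of -0.30 to -0.17. Both overlapped DMSO in some library and were lower in 18 of 19 same-numbered pairs.

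Of the cytoskeletal genes without a raised DMSO library, KRT15 (chr17:41513745-41522529, minus strand) encodes a type I keratin of basal and progenitor epithelium. The 4 DMSO libraries stood at 119, 97.3, 96.1 and 102 CPM. Its 1 h libraries stood at 78.8, 72, 80 and 83.5 CPM, and its 24 h libraries at 79.3, 81.1 and 86.1 CPM. A single dTAG library, 2 h replicate 1 at 99.4 CPM, reached into the DMSO range. The ratios lay between -0.40 and -0.29. Among 14 keratin genes with a mean count of 100 or more KRT15 was the only member, and 6 of them (42.9%) had group means below DMSO at all 5 times, compared with 13.3% of all 14148 genes. The centrosomal genes FAM110C (largest ratio -0.23, lowest -0.49 at 1 h) and CEP78 (largest -0.19) completed the group.

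The channel, transporter and receptor genes without a raised DMSO library were CACNA1H, SLC47A1, FZD1, PKD1 and SLC16A6. CACNA1H (chr16:1153106-1221771, plus strand) encodes a T-type calcium channel. Its DMSO libraries stood at 32.9, 35, 33.6 and 35.3 CPM and its 0.5 h libraries at 31.8, 27.4, 31 and 29.5 CPM. At 1 h they were 22.1, 27.7, 25.6 and 26 CPM, the lowest of the course, and at 24 h 26.3, 30.9 and 32.1 CPM. The ratios were -0.19, -0.43, -0.35, -0.33 and -0.20. SLC47A1, the extruder of organic cations MATE1, had DMSO libraries at 40.4, 37.5, 44.7 and 45.8 CPM and 1 h libraries at 30.2, 31.2, 32.8 and 26.8 CPM. One 4 h library, replicate 1, stood at 54.2 CPM, above all of DMSO. FZD1, a Wnt receptor, had its lowest ratio at 1 h (-0.44) and its largest at 24 h (-0.16). The polycystin gene PKD1 had a largest ratio of -0.16 and SLC16A6, a monocarboxylate transporter family gene, one of -0.15. Of 209 solute carrier genes with a mean count of 100 or more, 2 were members and 28 (13.4%) had group means below DMSO at all 5 times, compared with 13.3% of all 14148 genes.

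CXCL12 (chr10:44370165-44386493, minus strand), the chemokine that binds CXCR4, was the only member on a list of estrogen-induced genes. KCNK5, also on that list, ranked 33 against 41 for CXCL12 and was left out by its symbol. OLFM1, also on it, ranked 62, just outside the cut. In DMSO the CXCL12 libraries stood at 131, 132, 124 and 126 CPM. Its 0.5 h libraries stood at 119, 108, 103 and 106 CPM, and its 24 h libraries at 119, 109 and 108 CPM. One library, 4 h replicate 1 at 125 CPM, reached into the DMSO range, and the ratios lay between -0.26 and -0.17. CLPSL1, a colipase-like gene, had a largest ratio of -0.17 and the Golgi membrane glycoprotein gene GOLM1 one of -0.16.

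Of the enzymes, DEGS2 (chr14:100143957-100159645, minus strand), which hydroxylates and desaturates sphingolipids, had DMSO libraries at 81.7, 86.6, 69.3 and 76 CPM. Its 1 h libraries stood at 65.4, 62.4, 57.1 and 44 CPM. By 24 h they were 70.7, 67.5 and 63.6 CPM, and the ratios went from -0.35 at 0.5 h and -0.45 at 1 h to -0.22 at 24 h. CA8 (chr8:60185412-60281400, minus strand) belongs to the carbonic anhydrase family but lacks the catalytic activity. The 4 DMSO libraries stood at 24.3, 25.5, 23.1 and 20.7 CPM and its 1 h libraries at 14.9, 16.1, 19.9 and 17.4 CPM. The lowest DMSO library overlapped dTAG libraries of up to 22.8 CPM. PLD1, which makes phosphatidic acid (largest ratio -0.19), the selenoprotein gene SELENOW (-0.17) and SQOR, the mitochondrial sulfide oxidising enzyme (-0.17), were the other members of this kind.

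Among genes of ubiquitin and autophagy pathways, LONRF2 (largest ratio -0.21) and RNF223 (-0.16) encode RING finger proteins. RNF223 had DMSO libraries at 43.1, 55.8, 41.3 and 37.4 CPM and 4 h libraries at 31.3, 36.1, 32.4 and 30.5 CPM. OPTN (-0.15) encodes the autophagy receptor optineurin, ANKRD13D (-0.15) a ubiquitin-binding ankyrin protein and N4BP3 (-0.19) a partner of NEDD4.

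**Figure D4:**
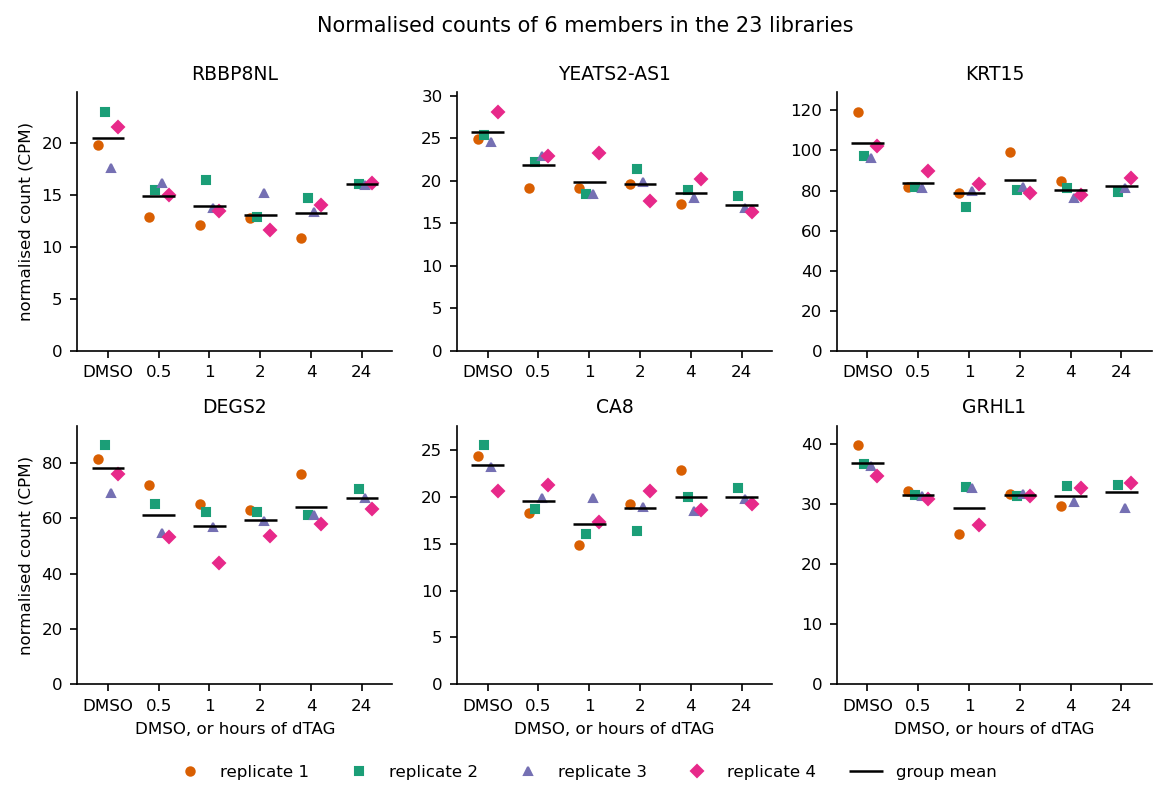
Normalised counts (CPM) of RBBP8NL, YEATS2-AS1, KRT15, DEGS2, CA8 and GRHL1 in the 23 libraries, by group, with symbols for replicate numbers and bars for group means. RBBP8NL, YEATS2-AS1 and GRHL1 show no overlap between DMSO and any dTAG library, and YEATS2-AS1 is lowest at 24 h.

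YEATS2-AS1 (chr3:183806457-183810783, minus strand), is a noncoding RNA gene antisense to the chromatin reader gene YEATS2. Its DMSO libraries stood at 24.9, 25.4, 24.6 and 28.1 CPM. Its 0.5 h libraries stood at 19.2, 22.2, 22.9 and 22.9 CPM, its 4 h libraries at 17.3, 18.9, 17.9 and 20.1 CPM and its 24 h libraries at 18.2, 16.8 and 16.3 CPM. All 3 libraries at 24 h were below all 4 at 0.5 h. The ratios to DMSO were -0.24, -0.38, -0.39, -0.47 and -0.59. YEATS2, on the other strand, had ratios between -0.01 and 0.05. The sources used here do not state whether the counting used strand.

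Other noncoding members shared ground with neighbours. ENSG00000271880 (chr10:86970741-87010126, plus strand) overlaps ADIRF (chr10:86968432-86983934), the adipogenesis regulatory factor gene, on the same strand, so the reads of these 2 members cannot be told apart where they overlap. ADIRF had DMSO libraries at 32.5, 35.1, 31.8 and 31.7 CPM and ratios of -0.35, -0.52, -0.37, -0.41 and -0.16. ENSG00000271880 had DMSO libraries at 19.1, 18.1, 18.4 and 17.3 CPM and ratios of -0.40, -0.43, -0.35, -0.47 and -0.16, so both lay closest to DMSO at 24 h. MIR8072, an 80 bp microRNA locus, lies in SBNO1 on its strand, ENSG00000278231 overlaps PREX1 and ENSG00000287787 overlaps GSE1. The host genes had mean counts of 1128, 4748 and 10200, against 107, 259 and 236 for the 3 members. Their ratios ran from -0.048 to 0.041 in SBNO1, -0.237 to 0.03 in PREX1 and -0.234 to -0.054 in GSE1. The protein-coding member ENSG00000285526 overlaps FXYD3 on the same strand (mean counts 102 and 93.7). Its ratios were -0.278, -0.246, -0.159, -0.195 and -0.317, and those of FXYD3 -0.278, -0.218, -0.136, -0.191 and -0.299. Reads of these 2 genes cannot be told apart where they overlap. The same limit holds for SQOR with ENSG00000260170 (mean counts 320 and 566), AJM1 with PHPT1 (178 and 196) and TDH with FAM167A-AS1 (113 and 32.8). Ratios ran from -0.172 to -0.087 in ENSG00000260170, -0.108 to 0.182 in PHPT1 and -0.237 to -0.079 in FAM167A-AS1.

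MTCO1P53 is a 699 bp nuclear copy of the mitochondrial cytochrome oxidase gene, so its reads are uncertain. Its DMSO libraries spread from 9.19 to 24.5 CPM. ENSG00000261068 had no entry in the annotation used here (GENCODE 44). In DMSO its libraries stood at 15.5, 16.2, 18.5 and 14.6 CPM, its dTAG libraries at 8.69 to 13.9 CPM, and its ratios at -0.53 to -0.36. The remaining members were RANBP3L, a nuclear export factor gene (largest ratio -0.25), ENSG00000287787 (-0.23), ENSG00000278231 (-0.19), MIR8072 (-0.18), the apical junction gene AJM1 (-0.17), the threonine dehydrogenase pseudogene TDH (-0.16), ENSG00000285526 (-0.16), ENSG00000285867 (-0.16), the kinase-like gene STKLD1 (-0.16), ENSG00000285650 (-0.15) and SF1-DT, the divergent transcript of SF1 (-0.15).

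Whether the lowered level moved between dTAG times was tested with edgeR's quasi-likelihood F-test over the 5 dTAG groups. At an adjusted p (FDR) under 0.1 it called 0 of the 57 members, where 1.97% of 26057 genes were called, and 4 members had an unadjusted p under 0.05 (YEATS2-AS1, SELENOW, OPTN and CACNA1H). With the replicate number as a block it called 4, MTCO1P53, YEATS2-AS1, DEGS2 and RNF223, beside 7.71% of all genes, and DESeq2 called 1, YEATS2-AS1, beside 3.38% of all genes. Since the rule kept out genes with a high dTAG mean at any time, it limits how far members can differ among the times, and nothing is read from these counts beside the shares of all genes. Between neighbouring times, from 1 h against 0.5 h to 24 h against 4 h, 0 members passed in edgeR with or without the block. Without it 2, 2, 1 and 3 members had an unadjusted p under 0.05, and DESeq2 also called 0. Of all genes 0.023%, 0.0269%, 0.00768% and 0.453% were called there, and 0.157%, 0.691%, 0.0154% and 1.77% with the block. These tests do not show that the levels were equal.

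The longest interval gave 1 call. From 0.5 h to 24 h YEATS2-AS1 differed by -0.36 on the log2 scale (SE 0.09, edgeR adjusted p = 0.048, lower in 3 of 3 libraries), where 0.791% of genes were called lower and 1.99% in either direction. With the block its difference was -0.39 (SE 0.08, edgeR adjusted p = 0.0072). Without replicate 2, 3 or 4 the difference was -0.39, -0.32 and -0.30 and the call was lost (edgeR adjusted p = 0.22, 0.56 and 0.26). The block added 3 calls in edgeR: MTCO1P53 at -0.47 (adjusted p = 0.068), ENSG00000278231 at 0.20 (adjusted p = 0.078) and DEGS2 at 0.20 (adjusted p = 0.092). In the fit without the block these 3 differences were -0.46, 0.14 and 0.14 and did not pass. With the block 2.88% of genes were called lower and 3.47% higher, 6.34% in all. Over the 42 members the median difference from 0.5 h to 24 h was 0.001, with 21 lower and 21 higher. From 0.5 h to 1 h it was -0.092, with 32 lower and 10 higher (median -0.006 over the 14148 genes). From 1 h to 2 h it was 0.058, with 12 lower and 30 higher (median 0.011 over those genes). From 2 h to 4 h and from 4 h to 24 h it was 0.018 and 0.008, each with 18 lower and 24 higher. Neighbouring differences share the libraries of 1 time, so they are not independent of each other.

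**Figure D5:**
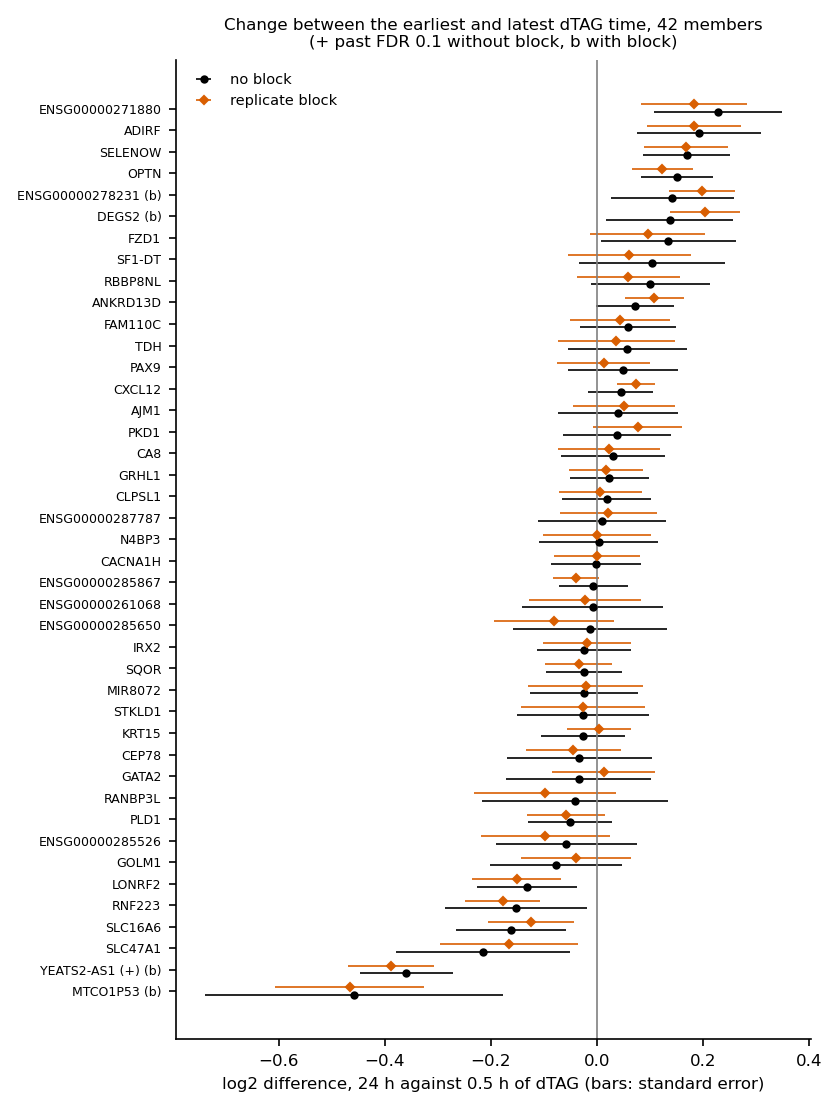
Log2 difference between 24 h and 0.5 h of dTAG (horizontal axis) for the 42 members without a raised DMSO library, with standard errors, from the fits without block (circles) and with replicate block (diamonds). YEATS2-AS1 and MTCO1P53 lie farthest below 0, and most members lie within 1 standard error or so of 0.

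The calls against DMSO are given only to show how far single genes carried. At 0.5, 1, 2, 4 and 24 h, 5, 14, 6, 4 and 2 of the 57 members were called lower by edgeR, where 0.242%, 0.733%, 0.303%, 0.307% and 0.299% of 26057 genes were. With the block the counts were 15, 23, 22, 16 and 12, beside 1.36%, 1.75%, 1.13%, 0.948% and 1.22%. The rule used these contrasts, so nothing is read from the counts.

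The list itself depended on which libraries entered it. When all libraries of replicate 1, 2, 3 or 4 were left out and the rule was applied again, 6 members were taken in all 4 lists: RBBP8NL, KRT15, YEATS2-AS1, DEGS2, CA8 and ENSG00000261068. A further 19 were taken in 3 lists, 19 in 2, 9 in 1 and 4 in none. All 42 members without a raised DMSO library kept their largest ratio below 0 in each of the 4 lists, as did 6 of the 15 others. The closest of the 42 to 0 was SLC16A6, at -0.013 without replicate 1.

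Members were mostly thinly covered genes. Of the 57, 29 (50.9%) had a mean count between 100 and 200, compared with 22.7% of the 14148 genes, and the median member span was 26006.5 bp against 35510 bp. By annotation 42 were protein-coding (73.7%, compared with 80.8%) and 11 were long noncoding (19.3%, compared with 14.6%). Only 3 pairs were within 1000 kb of each other: ADIRF with ENSG00000271880, DEGS2 with ENSG00000247970 and CACNA1H with PKD1.

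Of 14 luminal factor genes with a mean count of 100 or more, 9 had group means below DMSO at all 5 times (background 13.3%) although none was a member. GATA3, for example, had ratios of -0.22, -0.22, -0.16, -0.13 and -0.05, and SPDEF ratios of -0.35, -0.37, -0.35, -0.23 and -0.10, each shrinking towards 24 h. Between 0.5 h and 24 h, 5 of the 15 luminal factors rose and 0 fell by edgeR's test (5 and 1 with the block), where 1.2% of genes were called higher and 0.791% lower. Of 52 estrogen-induced genes 19 were below DMSO at all 5 times (background 13.3%). PGR, XBP1 and MYB are on both lists and are counted in each. Against DMSO at 0.5, 1, 2, 4 and 24 h edgeR called 4, 8, 6, 4 and 2 of 59 lower and 1, 2, 1, 4 and 2 higher. Of all genes 0.242%, 0.733%, 0.303%, 0.307% and 0.299% were called lower, and 0.234%, 0.514%, 0.43%, 0.526% and 0.564% higher. With the block 6, 12, 13, 10 and 9 were called lower and 6, 4, 7, 7 and 6 higher. Of all genes 1.36%, 1.75%, 1.13%, 0.948% and 1.22% were then called lower, and 1.12%, 1.49%, 1.3%, 1.55% and 1.43% higher. The counts in both directions were equal at 4 h and 24 h without the block. MYB (ratios -0.35 to -0.12) and CA12 (-0.46 to -0.10) were lower in all 19 pairs, and RBBP8 was higher in all of them. Apical junction and polarity genes were below DMSO throughout in 7 of 24 (background 13.3%). Ionotropic glutamate receptor genes were in 0 of 6. Of 19 tested, edgeR called 1 lower at 2 h (2 with the block) and 2 at 4 h and at 24 h, GRIK4 and GRIK3, where 0.303%, 0.307% and 0.299% of genes were called lower. Mitosis genes were in 0 of 20, but 10 of 20 were called lower at 24 h against DMSO, where 0.299% of genes were.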

How the data were processed

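PRO-seq libraries from 6 groups of T47D dTAG-TRPS1 Clone 28 cells were analysed from the deposited table of raw read counts per gene. Per the submitters' processing notes and the study's methods, the authors trimmed reads with cutadapt 1.8.1, collapsed duplicates by molecular identifier, removed ribosomal DNA reads, aligned the rest to hg38 with Bowtie2 2.4.4, sorted them with SAMtools 1.9, and counted reads over genes with bedtools. The annotation release and the use of strand are not given in the sources used here, so overlapping genes may share reads. The library of 24 h replicate 1 is not analysed here.

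Counts were fitted in edgeR 4.0.16 (R 4.3.3) with TMM factors and the quasi-likelihood test on the 26057 genes kept by filterByExpr (minimum count 10, minimum total 15). All 6 groups shared the fit, and a gene was called at a Benjamini-Hochberg adjusted p under 0.1 over all fitted genes. Samples were grouped by the labels. Replicate numbers mark dishes treated and collected together in time. The deviations of same-numbered libraries from their group means had a mean r over genes of 0.48 (55 pairs, -0.0189 to 0.871). For numbers 1 to 4 the mean r was 0.778, 0.248, 0.675 and 0.327. Libraries of different numbers had a mean r of -0.14 (165 pairs), with a wide range that overlapped (-0.811 to 0.736). Fits with the number as a block are therefore given where they change a count. All 33 pairs of libraries within a group differed by more than sampling noise. Gene positions are from GENCODE 44, which held 60463 of the 60605 identifiers, and start-site windows from RefSeq (GRCh38.p14).

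The members and the gene lists were chosen with earlier results of these data known. Named genes were RBBP8NL, GRIK4, the 8 other members of lowest rank, the lowest member at each time, members called among the dTAG times and the genes at the edge of the list, and the other genes with values were chosen after their values were seen. Alternatives were the replicate block, DESeq2 1.42.0, other size factors, no low-count filter, other count minimums and leaving out each replicate number.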

Additional observations from a re-analysis of the deposited data

Results flagged for a closer look

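Among the genes described with values per library, which included GRIK4 and TRPS1 beside members, 145 groups of 4 libraries were screened for 1 library far from the other 3 by Dixon's criterion, and 19 groups had one. Chance marks about 1 group in 20 of genes not chosen by these values. Members of lowest rank were chosen by the same DMSO values, so that rate does not apply to their DMSO groups. In DMSO these were KIFC3 replicate 1 at 402 CPM, ENSG00000231918 replicate 1 at 131 CPM, ENSG00000247970 replicate 2 at 508 CPM, CKAP5 replicate 2 at 943 CPM and TMEM131 replicate 1 at 267 CPM. Replicate 1 of a dTAG group stood apart in 9 cases, of which 8 were KIFC3 at 2 h (41.9 CPM), ENSG00000231918 at 4 h (19.9 CPM), ZIM3 at 0.5 h (67.5 CPM) and 2 h (25.7 CPM), CKAP5 at 0.5 h (301 CPM) and 4 h (365 CPM), TMEM268 at 4 h (89.2 CPM) and SLC47A1 at 4 h (54.2 CPM). The ninth was KRT15 at 2 h (99.4 CPM), which also stood apart in 0.5 h replicate 4 (89.8 CPM). The others were YEATS2-AS1 in 1 h replicate 4 (23.3 CPM), ENSG00000261068 in 0.5 h replicate 2 (11.4 CPM), and IRX2 in 0.5 h replicate 2 (19.3 CPM) and 1 h replicate 4 (13.3 CPM).

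The level of YEATS2-AS1 differed between 24 h and 0.5 h of dTAG by -0.36 on the log2 scale in edgeR's test of that difference (adjusted p = 0.048, 0.0072 to 0.56 over the alternatives).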

How the results depend on the processing

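With the replicate block, calls among the dTAG times went from 0 to 4 and from 24 h against 0.5 h from 1 to 4. Calls against DMSO at 0.5, 1, 2, 4 and 24 h went to 15, 23, 22, 16 and 12, and the block changed no other call count by more than 1.5 times. DESeq2 called 1 among the dTAG times and 8, 11, 10 and 7 against DMSO at 0.5, 2, 4 and 24 h. Scaling by total counts gave 0 calls from 0.5 h to 24 h, and 1, 2 and 1 against DMSO at 0.5, 2 and 24 h. Without a low-count filter there were 0 from 0.5 h to 24 h, and 0, 3 and 1 at those 3 times. Leaving out 1 replicate number gave 0 to 1 calls from 0.5 h to 24 h, and 0 to 3, 2 to 12, 0 to 9, 1 to 6 and 0 to 6 against DMSO at 0.5, 1, 2, 4 and 24 h. YEATS2-AS1 lost its call with total counts (-0.32, edgeR adjusted p = 0.32) and without the filter (-0.36, edgeR adjusted p = 0.15). The cause of these changes was not tested.

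With a count minimum of 50 the list kept 28 of its 57 members. A minimum of 200 also kept 28, but the rule fixed that count. The 29 members with mean counts under 200 could not be taken, and the rest could not be displaced. The list kept 57 with symbols left out before 60 genes were taken, 56 with median-of-ratios size factors and 45 with total counts. It kept 41 with means of same-numbered log2 ratios, and 22 to 39 without 1 replicate number (22 without replicate 1). In alternatives chosen after seeing the data it kept 35 to 39 when 1 DMSO library was left out. In others of that kind it kept 51 with TMM over all genes and 56 over genes with a mean of 100. The median log2 ratio at 2 h (-0.31) was -0.32 to -0.28 without 1 replicate number, -0.32 to -0.26 without 1 DMSO library and -0.28 over the members with no raised DMSO library. Of the values recomputed, 136 stayed within 1.5 times or 1 SD or kept their call, 49 moved further and 5 lost a call.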
